A study of Homo sapiens with 12 samples.

Results

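The genes described here are 40 collagens and extracellular matrix glycoproteins, with the enzymes and the chaperone that mature collagen. They were taken by symbol from the deposited tables, where all 40 were found among 27788 symbols with counts and 24552 with FPKM values (fragments relative to gene length and library depth). They comprise 19 collagen chains and 21 other genes. RNA was sequenced in 12 libraries, 3 in each of 4 groups. U-87 MG GSTO1 KO, U-87 MG WT, HCT116 GSTO1 KO and HCT116 WT libraries came from a human glioblastoma line and a human colorectal carcinoma line. Knockout cells carried a lentiviral Cas9, kept by blasticidin selection, and received a tracrRNA with a crRNA against exon 2 of GSTO1, the glutathione transferase omega 1 gene. Colonies grown from such cells were screened for loss of GSTO1 and sequenced at the target. The sources used here do not state how many colonies the libraries represent, nor whether WT cells carried Cas9 or received a control crRNA, so clonal differences and loss of GSTO1 cannot be told apart. GSTO1 itself checked the labels. It had 25.02, 23.8 and 25.2 CPM (counts scaled to a common depth by TMM factors within a line) in U-87 MG KO libraries, against 143, 142 and 117 CPM in U-87 MG WT libraries. It had 17.1, 14.6 and 15.7 CPM in HCT116 KO libraries, against 63.9, 64.7 and 61.4 CPM in HCT116 WT libraries.

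The extracellular matrix is a meshwork of proteins that cells secrete and then assemble outside themselves. Fibrillar collagens build tension-bearing fibres, type IV collagen with nidogens and perlecan builds basement membranes, and glycoproteins such as fibronectin, tenascins and thrombospondins link the meshwork to cell-surface receptors. Collagen chains are hydroxylated and folded in the endoplasmic reticulum, and their fibres are cross-linked outside the cell by lysyl oxidases.

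Most of these genes were expressed at far higher levels in U-87 MG than in HCT116. In U-87 MG, 33 members had a mean above 0.5 FPKM over the 6 libraries, 26 were above 10 FPKM and 11 above 100 FPKM. In HCT116, 18 were above 0.5 FPKM, 6 above 10 FPKM and 0 above 100 FPKM. The members took 4.13% to 4.14% of all counts in U-87 MG KO libraries and 4.23% to 4.35% in U-87 MG WT libraries. They took 0.147% to 0.156% in HCT116 KO libraries and 0.121% to 0.123% in HCT116 WT libraries. FN1, which encodes fibronectin, led the order of levels in U-87 MG, at 2297 ± 18.5 FPKM in KO and 2037 ± 81.9 FPKM in WT libraries (SD, n = 3 each). It alone took 2.24% to 2.25% of all counts in U-87 MG KO libraries and 1.94% to 2.08% in U-87 MG WT libraries. Next in U-87 MG KO libraries came COL1A2 at 577 ± 4.43 FPKM, SPARC at 404 ± 7.12, COL6A3 at 311 ± 2.88 and COL1A1 at 261 ± 4.75 FPKM, each separated from the next by more than its spread. In U-87 MG WT libraries COL1A2 at 472 ± 40.7 FPKM and COL1A1 at 461 ± 10.1 FPKM did not differ beyond their spread, and neither did COL6A3 at 386 ± 16.8 and SPARC at 381 ± 2.73 FPKM. In HCT116 the order was led by SERPINH1, a chaperone that binds procollagen in the endoplasmic reticulum, at 54.2 ± 4.21 FPKM in KO and 73.3 ± 1.12 FPKM in WT libraries.

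**Figure D1:**
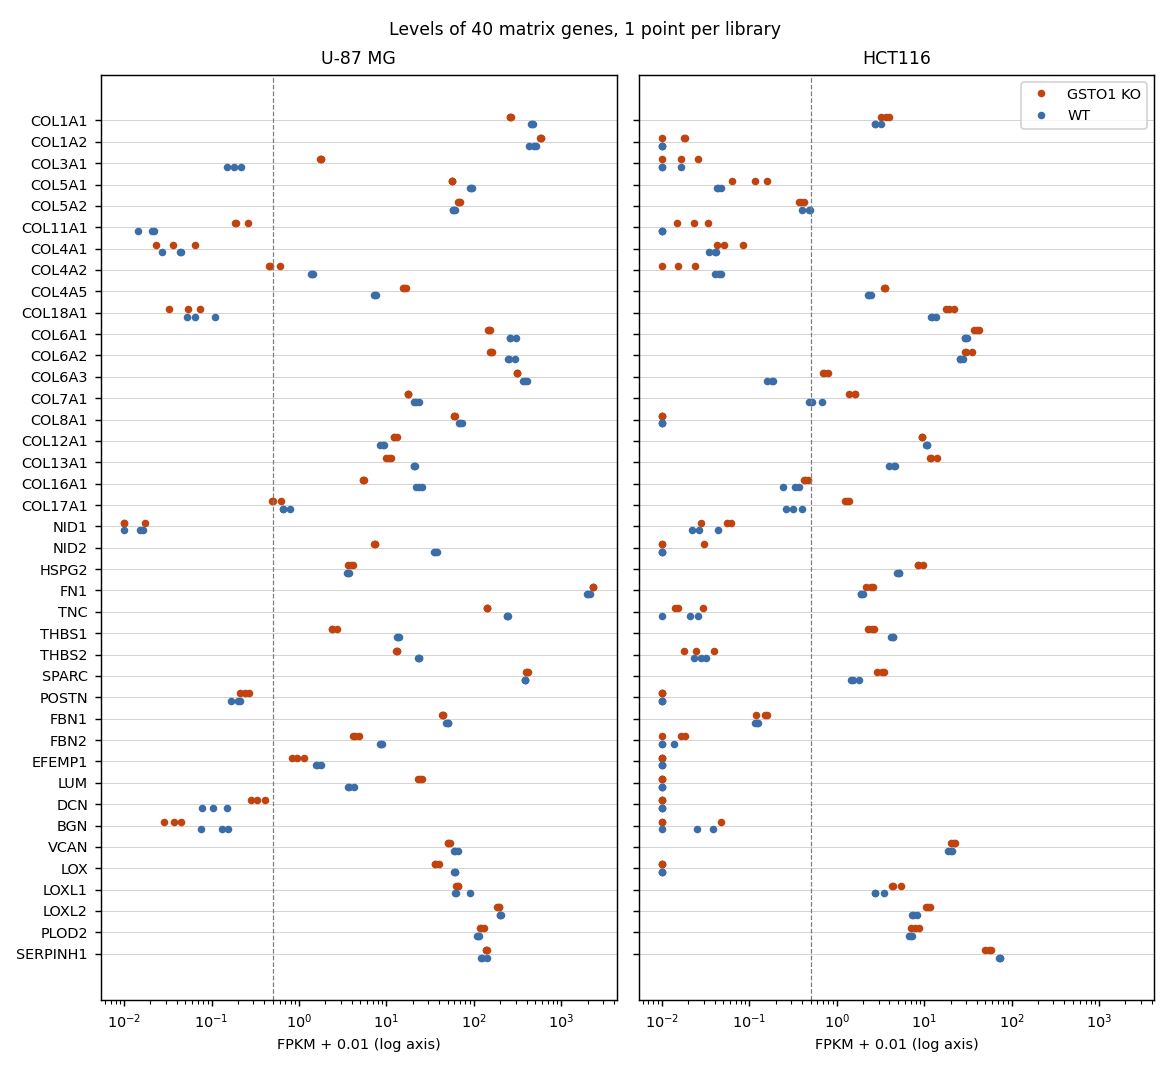
FPKM of the 40 members in each library, plotted as FPKM + 0.01 on a log axis, with U-87 MG on the left, HCT116 on the right, GSTO1 KO libraries in red and WT libraries in blue. The dashed line marks 0.5 FPKM, which 33 members exceeded on average in U-87 MG and 18 in HCT116, and points at the left edge are values listed at 0.

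Between the WT lines, 31 of the 37 members tested were called higher in U-87 MG, beside 28.3% of all genes tested, and 1 was called lower, beside 26.9% of all genes. A call needed an adjusted p under 0.05 from edgeR's quasi-likelihood test, a fold above 1.5 and a mean above 0.5 FPKM in at least 1 line, over the KO and WT libraries of that line. COL3A1 met the last condition only through its U-87 MG KO libraries. With means over WT libraries only, an alternative chosen after seeing the data, 30 members were called higher, beside 27.9% of genes, and 1 lower, beside 26.5%. The 1 lower gene was COL18A1, whose collagen XVIII is a basement membrane proteoglycan and the source of endostatin. It had 3 to 17 counts per library in U-87 MG and 1875 to 3475 in HCT116, a log2 difference of -7.19 ± 0.15 (SE, edgeR adjusted p = 1.0e-26) between the WT lines. COL12A1 at -0.19 and HSPG2 at -0.34 on the log2 scale were the 2 well-expressed members whose levels in the WT lines lay within 1.5-fold. COL8A1, POSTN, EFEMP1, LUM, DCN and LOX had 0 counts in all 6 HCT116 libraries, which allows each a level of up to 0.0227 CPM over that line's total. Such limits cover counting error only. The U-87 MG libraries had paired reads and the HCT116 libraries single reads, so line and read layout cannot be told apart.

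Library totals lay between 17814142 and 28097179 counts. Replicates differed beyond sampling noise in every group, with chi-square values of 1.49 to 9.77 per degree of freedom, the largest for pairs with U-87 MG WT replicate 3. The mitochondrial ribosomal RNA RNR2 took 0.419% to 0.435% of counts in U-87 MG KO libraries against 0.254% to 0.322% in U-87 MG WT, and 1.36% to 1.54% in HCT116 KO against 0.981% to 1.06% in HCT116 WT. Of 10 mesenchymal markers, 9 were above 0.5 FPKM in U-87 MG, with summed levels of 3258 to 3304 FPKM in KO and 3959 to 4621 FPKM in WT libraries. Most of these sums was VIM, with means of 3120 FPKM in KO and 3980 FPKM in WT libraries. PDGFRA (4.28 FPKM in KO, 2.83 in WT) and CDH2 (35.0 and 32.8) were higher in KO, and the others above 0.5 FPKM were lower. In HCT116, 4 of the 10 mesenchymal markers were above 0.5 FPKM, at 154 to 167 FPKM in KO and 93.4 to 95.4 FPKM in WT libraries, with S100A4 the highest and PDGFRA listed at 0. Of 10 glial and neural stem markers, 2 were above 0.5 FPKM in U-87 MG, NES and SLC1A3, at summed levels of 30.0 to 31.2 FPKM in KO and 27.5 to 28.9 FPKM in WT libraries. In HCT116 this list summed to 7.22 to 7.80 FPKM in KO and 14.9 to 15.7 FPKM in WT libraries, with SLC1A3 at a mean of 1.37 FPKM in KO and 8.86 FPKM in WT, and ALDH1L1 at 1.57 FPKM in KO and 0.134 FPKM in WT libraries. The glial marker GFAP was near 0 in U-87 MG, with a mean of 0.0162 FPKM in KO and 0.0164 FPKM in WT libraries. Of 10 colon epithelial markers, 7 were above 0.5 FPKM in HCT116, at 1783 to 1971 FPKM in KO and 2011 to 2128 FPKM in WT libraries, while VIL1 was at or near 0. Most of these sums was KRT8, KRT18 and KRT19, with means of 855, 442 and 414 FPKM in KO and 976, 519 and 438 FPKM in WT libraries. CDH1 went the other way, at 16.0 FPKM in KO and 9.17 in WT, with CDX2 at 8.49 and 7.82 and EPCAM at 124 and 125. In U-87 MG the 10 colon epithelial markers summed to 4.13 to 4.91 FPKM in KO and 7.70 to 8.11 FPKM in WT libraries. The 8 endothelial markers summed to 0.775 to 1.11 FPKM in U-87 MG KO and 2.01 to 2.60 FPKM in U-87 MG WT libraries, and the 8 leukocyte markers to 2.91 to 3.31 FPKM in KO and 4.40 to 4.75 FPKM in WT libraries. In HCT116 both lists summed to at most 0.633 FPKM in any library. The part of these marker levels and of RNR2 in the results below was not tested. Fewer cells of a type and less RNA per cell cannot be told apart in bulk libraries.

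In U-87 MG, loss of GSTO1 went with lower RNA of many matrix genes and higher RNA of a few. Of 36 members tested, 14 fell, beside 8.15% of all genes tested, and 3 rose, beside 8.06% of all genes. THBS1, NID2 and COL16A1 fell the most, and COL3A1, LUM and COL4A5 rose. In HCT116 the direction was mostly the opposite. Of 23 members tested, 8 rose, beside 7.82% of all genes tested, and 1 fell, beside 4.07% of all genes. Among the called members COL17A1, COL13A1 and COL7A1 rose the most, while COL6A3 (log2 2.18) and COL5A1 (log2 1.46) passed p and fold but had a mean under 0.5 FPKM. THBS1 was the 1 that fell. The share that rose in U-87 MG, 8.33%, and the share that fell in HCT116, 4.35%, were close to those of all genes. The median log2 fold change of the tested members was -0.25 in U-87 MG, beside 0.01 over all 13741 genes tested, and 0.48 in HCT116, beside 0.01 over all 14068 genes tested. Without the fold threshold, 21 of the 36 were lower in U-87 MG, beside 28.2% of all genes tested, and 8 were higher, beside 25.4%. In HCT116, 15 of the 23 were then higher, beside 25.6% of all genes tested, and 3 were lower, beside 26.4%. KO libraries in U-87 MG lay wholly below WT libraries for 21 of the 36, beside 32.2% of all genes tested, and wholly above for 11, beside 31.8%. In HCT116 they lay wholly above for 18 of the 23, beside 31.2% of all genes tested, and wholly below for 3, beside 30.4%.

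**Figure D2:**
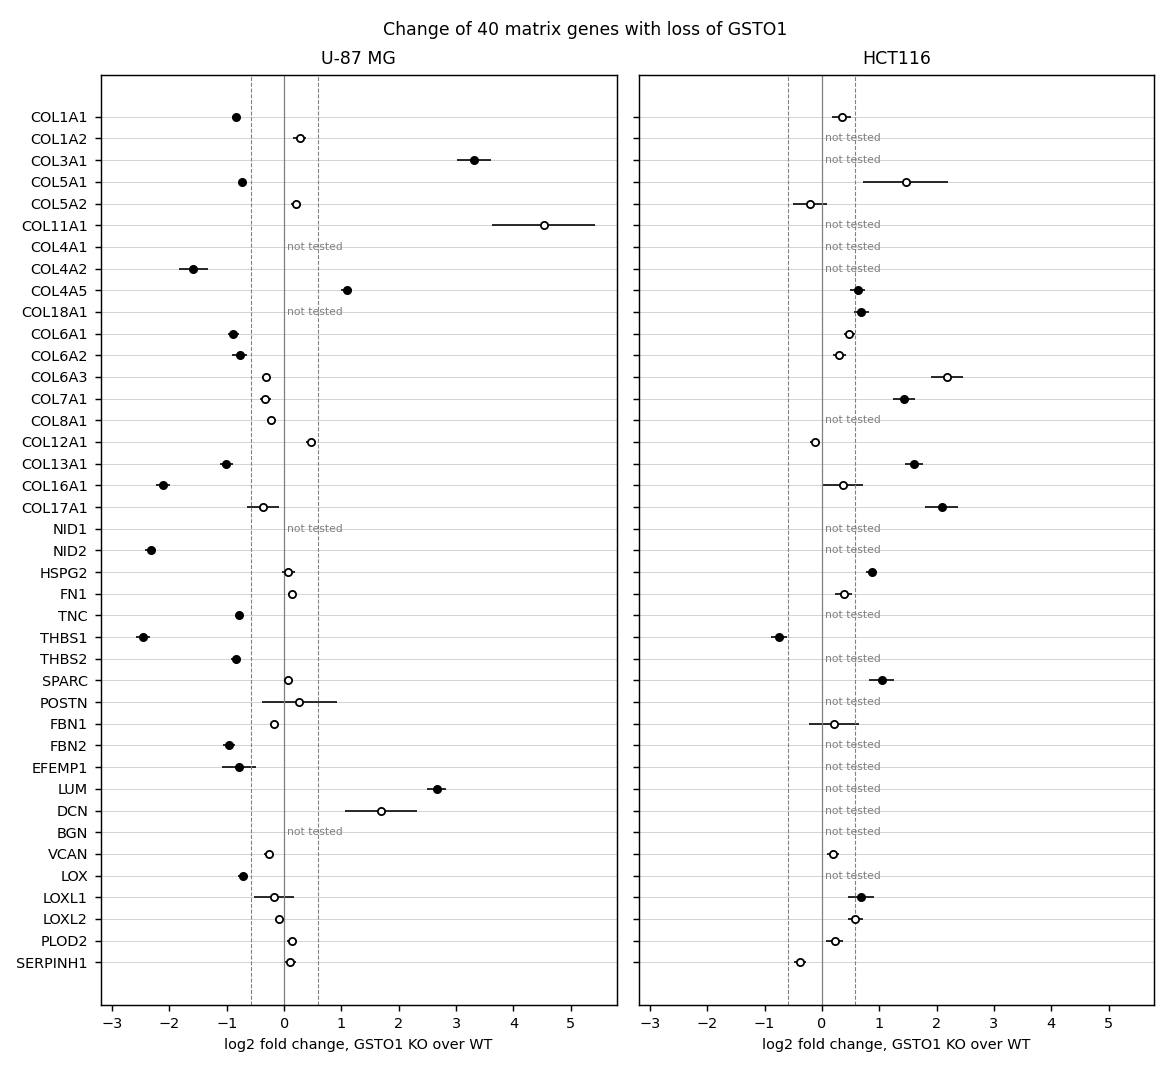
Log2 fold change of each member, GSTO1 KO over WT, in U-87 MG on the left and HCT116 on the right, from edgeR with 95% intervals as bars. Filled points passed the thresholds (3 higher and 14 lower in U-87 MG, 8 higher and 1 lower in HCT116), dashed lines mark a fold of 1.5, and members with too few counts are marked as not tested.

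The fibrillar collagens moved apart from each other in U-87 MG, where 1 of 6 chains rose, 2 fell and 3 were not called. COL1A1, which encodes the alpha-1 chain of type I collagen (chr17:50184101-50201632, GRCh38), had 1807, 1865 and 1821 CPM in U-87 MG KO libraries against 3251, 3373 and 3180 CPM in WT libraries. Every KO library lay below every WT library, a log2 fold change of -0.84 ± 0.03 (SE, edgeR adjusted p = 2.6e-15). COL1A2, the partner chain in the type I trimer, had 3513, 3532 and 3523 CPM in KO libraries against 2990, 3151 and 2631 CPM in WT libraries, a log2 difference of 0.27 that stayed under the fold threshold. The chains thus differed in direction, with COL1A1 below and COL1A2 above their WT libraries. COL5A1 and COL5A2 encode chains of type V collagen, which nucleates type I fibrils. COL5A1 had 547, 548 and 549 CPM in KO libraries against 897, 926 and 898 CPM in WT libraries, and fell by 0.73 on the log2 scale (edgeR adjusted p = 6.0e-14). COL5A2 had 564, 547 and 533 CPM in KO libraries against 474, 495 and 458 CPM in WT libraries, 0.20 on the log2 scale and under the fold threshold. COL3A1, which encodes the type III collagen of pliable tissues, rose 9.93-fold and was low in WT. It had 11.05, 10.7 and 10.9 CPM in KO libraries against 0.925, 1.09 and 1.28 CPM in WT libraries (log2 3.31 ± 0.15 SE, edgeR adjusted p = 4.0e-14). COL11A1, a chain of type XI collagen, had 55, 36 and 32 counts in KO libraries against 2, 1 and 2 counts in WT libraries. Its groups did not overlap, but its mean level was under 0.5 FPKM, so it was not called.

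Ratios between chains of one collagen, taken within a library from FPKM, differed between KO and WT. COL1A1 over COL1A2 was 0.448, 0.458 and 0.450 in U-87 MG KO libraries and 0.946, 0.933 and 1.06 in U-87 MG WT libraries. COL5A1 over COL5A2 averaged 0.831 ± 0.025 in KO and 1.58 ± 0.029 in WT libraries (SD, n = 3 each). COL6A3 over COL6A1 averaged 2.10 ± 0.059 in KO and 1.43 ± 0.17 in WT libraries. COL6A1 over COL6A2 was closer between the groups, at 0.953 ± 0.0055 in KO and 1.03 ± 0.028 in WT libraries. In HCT116, COL6A1 over COL6A2 averaged 1.27 ± 0.058 in KO and 1.12 ± 0.0089 in WT libraries, and COL6A3 over COL6A1 averaged 0.0182 ± 0.00091 in KO and 0.0056 ± 0.00041 in WT libraries. Groups did not overlap for any of these 6 ratios, and each two-sided exact permutation p was 0.1, the smallest that 3 against 3 libraries can give. Among single genes tested, KO libraries lay wholly above WT for 31.8% and wholly below for 32.2% in U-87 MG. In HCT116 these shares were 31.2% and 30.4%. The share over other ratios of genes was not computed, so nothing is read from this lack of overlap.

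**Figure D3:**
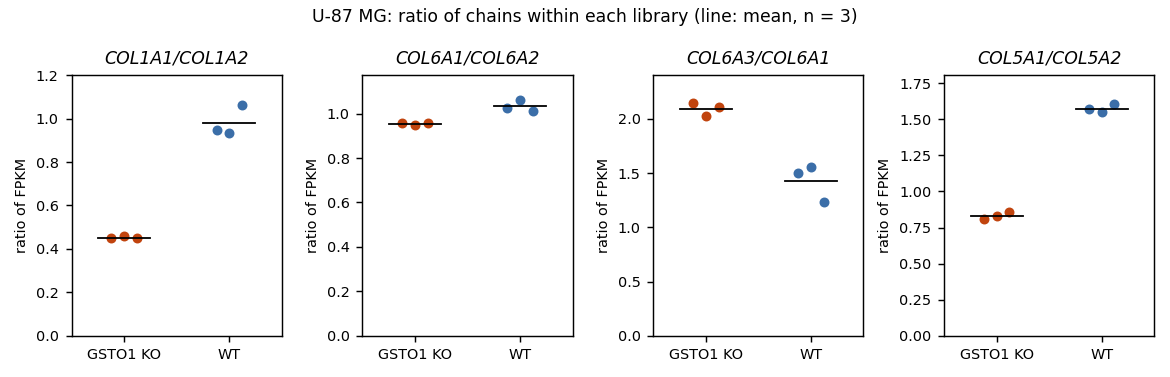
Ratio of FPKM between chains of type I, type VI and type V collagen in each U-87 MG library, with GSTO1 KO on the left of each panel, WT on the right and the group mean as a line (n = 3). COL1A1 over COL1A2 sits near 0.452 in KO and 0.981 in WT libraries, and the groups do not overlap in any panel.

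In HCT116 the fibrillar chains were low and 0 of 6 were called. COL1A1 and COL5A1 passed the adjusted p (edgeR adjusted p = 0.0019 and 0.0025), and the same pair passed an unadjusted p under 0.05. DESeq2 and limma called 0 of the 6 as well. A call by any method needed a mean above 0.5 FPKM, which only COL1A1 had, so the other chains could not be called. COL1A1 had 24.1, 28.0 and 30.4 CPM in KO libraries against 20.7, 20.8 and 23.8 CPM in WT libraries, a log2 difference of 0.34 that stayed under the fold threshold. COL5A1 had 0.614, 1.74 and 1.13 CPM in KO libraries against 0.453, 0.424 and 0.377 CPM in WT libraries, and its mean level was under 0.5 FPKM. COL1A2, COL3A1 and COL11A1 had 0 to 4 counts per library and were not tested.

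Type IV collagen chains, the sheet-forming collagens of basement membranes, are encoded by genes that lie head to head. COL4A1 and COL4A2 start 127 bp apart on chromosome 13, and COL4A6 and COL4A5 start 380 bp apart on the X chromosome, by the nearer of the RefSeq starts of COL4A6. Their promoters are shown because COL4A5 and COL4A6 rose in U-87 MG, where COL4A2 fell and COL4A1 had too few counts to test. Each is a RefSeq window of 250 bases before to 50 after the start on GRCh38.p14, read 5' to 3' on the gene's own strand, at chr13:110307108-110307407 (minus), chr13:110307034-110307333 (plus), chrX:108439588-108439887 (plus) and chrX:108439409-108439708 (minus). Capitals mark 3 motifs on either strand, the CCAAT box (CCAAT), the GC box (GGGCGG) and the TATA box (TATAAA), each searched without regard to overlap with the others.
COL4A1: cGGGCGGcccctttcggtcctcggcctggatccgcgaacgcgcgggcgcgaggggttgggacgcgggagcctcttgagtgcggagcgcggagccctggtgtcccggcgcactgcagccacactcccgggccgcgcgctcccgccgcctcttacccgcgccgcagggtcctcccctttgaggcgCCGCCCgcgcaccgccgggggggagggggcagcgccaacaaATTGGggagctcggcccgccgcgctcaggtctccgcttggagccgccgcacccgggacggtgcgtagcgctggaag
COL4A2: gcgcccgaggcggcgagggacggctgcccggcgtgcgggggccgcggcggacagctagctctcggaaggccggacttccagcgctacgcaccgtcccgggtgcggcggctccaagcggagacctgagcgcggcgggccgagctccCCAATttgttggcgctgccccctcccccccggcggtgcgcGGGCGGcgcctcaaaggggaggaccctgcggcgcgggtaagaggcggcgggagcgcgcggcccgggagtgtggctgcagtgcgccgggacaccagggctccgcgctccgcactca
COL4A5: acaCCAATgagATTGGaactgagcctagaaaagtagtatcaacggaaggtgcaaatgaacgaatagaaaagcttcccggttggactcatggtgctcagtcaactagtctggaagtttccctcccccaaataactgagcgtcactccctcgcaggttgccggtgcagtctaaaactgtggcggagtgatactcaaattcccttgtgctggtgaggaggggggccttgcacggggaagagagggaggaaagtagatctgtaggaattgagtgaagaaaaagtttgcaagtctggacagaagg
COL4A6: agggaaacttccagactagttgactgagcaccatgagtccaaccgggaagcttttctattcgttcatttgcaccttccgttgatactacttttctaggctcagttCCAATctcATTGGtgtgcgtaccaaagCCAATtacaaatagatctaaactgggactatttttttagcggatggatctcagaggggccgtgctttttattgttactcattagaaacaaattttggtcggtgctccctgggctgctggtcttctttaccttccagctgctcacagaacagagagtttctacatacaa
The windows of COL4A1 and COL4A2 shared 226 bases and those of COL4A5 and COL4A6 shared 121 bases, read from opposite strands. The CCAAT box was found in 34.6% of all 35116 RefSeq windows, the GC box in 45.0% and the TATA box in 11.5%. Among the 35 windows of 30 members that had one, 13 held the CCAAT box, 23 the GC box and 7 the TATA box. Such matches describe letters and not binding sites.

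COL4A2 had 3.36, 3.32 and 4.41 CPM in U-87 MG KO libraries against 11.4, 10.8 and 11.0 CPM in WT libraries, and fell by 1.58 on the log2 scale (SE 0.13, edgeR adjusted p = 3.7e-10). Its neighbour COL4A1 stood at 0.205 ± 0.177 CPM in KO and 0.190 ± 0.084 CPM in WT libraries, with overlapping groups and too few counts to test. COL4A5 had 127, 116 and 117 CPM in U-87 MG KO libraries against 57.8, 56.8 and 54.0 CPM in WT libraries, and rose by 1.09 on the log2 scale (SE 0.05, edgeR adjusted p = 4.8e-14). COL4A6, which is not among the 40, rose with it, with 72.7 ± 0.668 CPM in KO and 41.6 ± 1.20 CPM in WT libraries (log2 0.81, edgeR adjusted p = 1.5e-11). In HCT116 COL4A5 had 28.8, 29.3 and 27.8 CPM in KO libraries against 18.7, 18.2 and 19.0 CPM in WT libraries, and rose by 0.62 on the log2 scale (edgeR adjusted p = 2.6e-07), a call that limma on FPKM did not make. COL4A6 stood at 2.37 ± 0.257 CPM in HCT116 KO and 1.74 ± 0.257 CPM in HCT116 WT libraries. COL4A5 was therefore higher in KO in both lines, and it was the 1 member called higher in both. COL18A1 had 129, 119.9 and 145 CPM in HCT116 KO libraries against 77.2, 79.4 and 88.7 CPM in WT libraries, a rise of 0.69 on the log2 scale (edgeR adjusted p = 2.5e-08).

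Nidogens and perlecan join the type IV and laminin networks of basement membranes. NID2, encoding nidogen-2, was among the sharpest changes in U-87 MG, at 42.9, 42.9 and 42.9 CPM in KO libraries against 208, 212 and 226 CPM in WT libraries. The fall was 5.01-fold (log2 -2.33 ± 0.05 SE, edgeR adjusted p = 7.7e-20), and the groups did not overlap. In HCT116 NID2 had 2 counts in 1 KO library and 0 in the other 5 libraries. A stretch of 30.7% of its exon bases lies opposite the exons of RTRAF, listed in the counts as C14orf166, which had 1572 to 2069 counts in U-87 MG KO and 3066 to 3910 counts in U-87 MG WT libraries. In HCT116 the same partner had 2604 to 3855 counts while NID2 had 0 to 2, so few of the partner's reads were counted as NID2 there. The HCT116 reads were single and the U-87 MG reads paired. The partner was also lower in U-87 MG KO libraries, and the part of its reads in the NID2 fall was not tested. NID1 had 0 to 2 counts per library in U-87 MG and was not tested in either line. HSPG2, encoding perlecan, had 157, 159 and 177 CPM in HCT116 KO libraries against 91.4, 88.5 and 90.5 CPM in WT libraries, and rose by 0.87 on the log2 scale (SE 0.05, edgeR adjusted p = 2.2e-11). The U-87 MG libraries had it at 66.3 ± 4.17 CPM in KO and 62.9 ± 1.48 CPM in WT libraries, and its groups overlapped.

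Type VI collagen forms beaded microfibrils around cells from chains encoded by COL6A1, COL6A2 and COL6A3. In U-87 MG, 2 of the 3 chains fell. COL6A1 had 690, 714 and 700 CPM in KO libraries against 1229, 1245 and 1424 CPM in WT libraries, and COL6A2 had 575, 602 and 581 CPM in KO libraries against 955, 927 and 1125 CPM in WT libraries. These were falls of 0.89 and 0.77 on the log2 scale (edgeR adjusted p = 5.5e-11 and 4.6e-06), with WT replicate 3 the highest library for both. COL6A3 had 3420, 3365 and 3411 CPM in KO libraries against 4249, 4422 and 3993 CPM in WT libraries, a log2 difference of -0.31 that stayed under the fold threshold although the groups did not overlap. In HCT116 all 3 chains were higher in every KO library than in any WT library, and 0 were called by edgeR or DESeq2. Each passed the adjusted p, and also an unadjusted p under 0.05, and missed the call on fold or mean level. COL6A1 stood at 206 ± 11.4 CPM in KO and 148 ± 4.43 CPM in WT libraries (log2 0.48, edgeR adjusted p = 4.0e-08). COL6A2 stood at 127 ± 11.3 CPM in KO and 103 ± 4.40 CPM in WT libraries (log2 0.31, edgeR adjusted p = 1.3e-04). COL6A3 had 8.32, 7.90 and 9.24 CPM in HCT116 KO libraries against 1.93, 1.70 and 2.03 CPM in WT libraries, a 4.53-fold difference (edgeR adjusted p = 1.5e-10). It was not called because its mean level lay under 0.5 FPKM. Leaving out WT replicate 2 took that mean past the threshold, so COL6A3 was then called, at log2 2.10 against 2.18 with all libraries.

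The remaining collagens include anchoring, network, fibril-associated and transmembrane types. COL13A1, a transmembrane collagen of adhesion sites, was the 1 member called in opposite directions in the lines. It had 37.1, 32.9 and 37.1 CPM in U-87 MG KO libraries against 69.5, 73.2 and 72.6 CPM in WT libraries, a fall of 1.01 on the log2 scale (edgeR adjusted p = 2.2e-12, SE 0.06). The HCT116 values were 45.3, 43.4 and 52.1 CPM in KO libraries against 16.3, 14.2 and 15.9 CPM in WT libraries, a rise of 1.61 (SE 0.08, edgeR adjusted p = 2.8e-12). COL16A1, a fibril-associated collagen, had 38.0, 38.3 and 37.4 CPM in U-87 MG KO libraries against 165, 179 and 148 CPM in WT libraries, a 4.33-fold fall (edgeR adjusted p = 2.3e-16). COL16A1 in HCT116 stood at 3.14 ± 0.162 CPM in KO and 2.46 ± 0.426 CPM in WT libraries and was not called. COL17A1, the transmembrane collagen of hemidesmosomes, had 10.8, 9.003 and 9.87 CPM in HCT116 KO libraries against 1.81, 2.77 and 2.36 CPM in WT libraries, a 4.25-fold rise (edgeR adjusted p = 3.7e-10). COL7A1, which forms the anchoring fibrils beneath epithelia, had 23.1, 19.8 and 22.3 CPM in HCT116 KO libraries against 7.08, 7.94 and 9.15 CPM in WT libraries, a 2.71-fold rise (edgeR adjusted p = 2.6e-10). In both genes every HCT116 KO library was above every WT library, while in U-87 MG both had lower values in KO, with log2 differences of -0.36 for COL17A1 and -0.33 for COL7A1, under the fold threshold. COL8A1, found in U-87 MG and at 0 counts in HCT116, differed by -0.23 on the log2 scale in U-87 MG. COL12A1, a fibril-associated collagen, differed by 0.47 in U-87 MG and -0.13 in HCT116, also under the threshold.

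**Figure D4:**
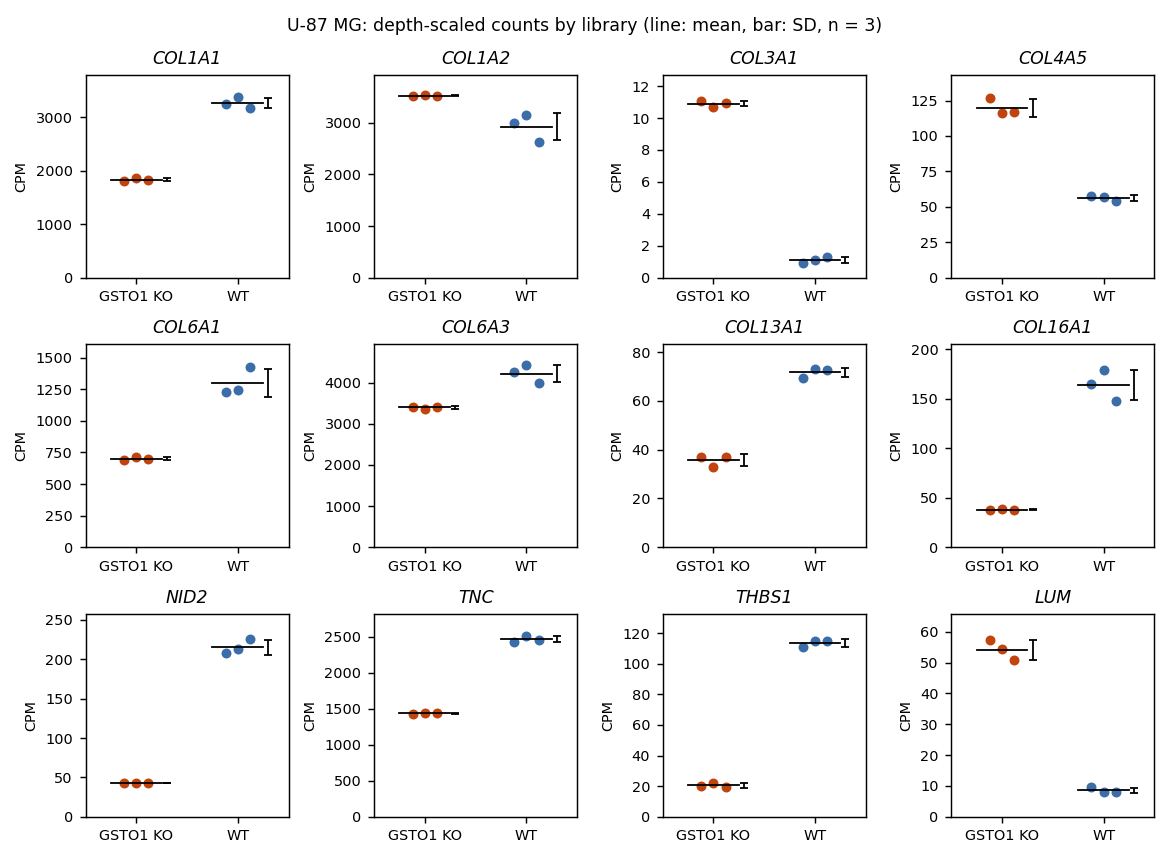
CPM of 12 members in the U-87 MG libraries, GSTO1 KO on the left and WT on the right of each panel, 1 point per library, with the mean as a line and the SD as a bar (n = 3). KO libraries lie above WT libraries for COL1A2, COL3A1, COL4A5 and LUM and below them for the other 8 genes, without overlap.

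The promoters of COL13A1 and THBS1 are shown because these genes were the members called in both lines with opposite and with equal falling direction, a choice made after their values were seen. They are RefSeq windows of GRCh38.p14, on the plus strand, at chr10:69801656-69801955 and chr15:39580829-39581128, with the same motifs in capitals.
COL13A1: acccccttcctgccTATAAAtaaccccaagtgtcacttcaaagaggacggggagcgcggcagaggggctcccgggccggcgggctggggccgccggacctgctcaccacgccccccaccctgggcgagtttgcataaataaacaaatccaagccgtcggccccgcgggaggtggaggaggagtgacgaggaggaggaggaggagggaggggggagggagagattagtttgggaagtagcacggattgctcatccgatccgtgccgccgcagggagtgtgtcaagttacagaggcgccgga
THBS1: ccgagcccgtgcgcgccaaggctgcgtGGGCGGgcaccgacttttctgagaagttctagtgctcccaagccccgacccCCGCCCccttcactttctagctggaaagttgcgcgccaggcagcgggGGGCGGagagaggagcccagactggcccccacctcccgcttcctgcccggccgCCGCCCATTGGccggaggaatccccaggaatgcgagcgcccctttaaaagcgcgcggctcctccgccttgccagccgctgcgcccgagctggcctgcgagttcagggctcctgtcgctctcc
The COL13A1 window held 1 TATA box match and neither of the other motifs. The THBS1 window held 4 matches to the GC box and 1 to the CCAAT box. Neither set of letters was tested against the expression values.

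Matrix glycoproteins signal to cells through integrins and other receptors. THBS1, encoding thrombospondin-1, which binds latent TGF-beta and CD47, fell in both lines. It had 19.9, 22.4 and 19.6 CPM in U-87 MG KO libraries against 111, 115 and 115 CPM in WT libraries, a 5.52-fold fall (log2 -2.47 ± 0.06 SE, edgeR adjusted p = 4.9e-19). In HCT116 it had 24.2, 20.6 and 22.2 CPM in KO libraries against 37.9, 35.9 and 38.5 CPM in WT libraries, a 1.68-fold fall (log2 -0.75 ± 0.07 SE, edgeR adjusted p = 3.2e-08). It was the 1 member called lower in both lines. THBS2, encoding thrombospondin-2, had 90.9, 86.3 and 90.0 CPM in U-87 MG KO libraries against 159.6, 163 and 156 CPM in WT libraries, and fell by 0.84 on the log2 scale (edgeR adjusted p = 2.8e-13). TNC, encoding tenascin-C, an adhesion-modulating protein of glioma matrix, had 1431, 1438 and 1443 CPM in U-87 MG KO libraries against 2437, 2514 and 2451 CPM in WT libraries, and fell by 0.78 (edgeR adjusted p = 4.8e-15). All 3 of these genes had U-87 MG KO libraries below all the WT libraries, and in HCT116 TNC and THBS2 had 0 to 6 counts per library. SPARC, encoding a collagen-binding matricellular protein, had 12.3, 15.1 and 14.2 CPM in HCT116 KO libraries against 7.61, 6.16 and 6.37 CPM in WT libraries, a 2.06-fold rise (edgeR adjusted p = 1.1e-07). SPARC in U-87 MG stood at 1614 ± 22.6 CPM in KO and 1540 ± 18.1 CPM in WT libraries, a log2 difference of 0.07 (edgeR adjusted p = 0.082). FN1 differed by 0.13 on the log2 scale in U-87 MG and by 0.38 in HCT116, both under the fold threshold. POSTN, encoding periostin, was under 0.5 FPKM in U-87 MG.

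Elastic fibre glycoproteins scaffold elastin and store growth factors. FBN2, encoding fibrillin-2, had 54.8, 52.7 and 59.7 CPM in U-87 MG KO libraries against 107, 113 and 107 CPM in WT libraries, and fell by 0.97 on the log2 scale (edgeR adjusted p = 6.7e-13). EFEMP1, encoding fibulin-3, had 3.21, 3.85 and 2.82 CPM in U-87 MG KO libraries against 6.03, 5.58 and 5.35 CPM in WT libraries, and fell by 0.78 (edgeR adjusted p = 1.1e-04), a call that limma on log2(FPKM + 1) did not make. FBN1, encoding fibrillin-1, differed by -0.18 on the log2 scale in U-87 MG, and in HCT116 its groups overlapped.

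The small proteoglycans lumican and decorin coat collagen fibrils, and versican is a large proteoglycan that binds hyaluronan. LUM, encoding lumican, had 57.3, 54.5 and 50.8 CPM in U-87 MG KO libraries against 9.51, 8.09 and 8.18 CPM in WT libraries, a 6.32-fold rise (log2 2.66 ± 0.08 SE, edgeR adjusted p = 2.5e-17). DCN, encoding decorin, is its neighbour 28.99 kb away on chromosome 12. It had 39, 39 and 33 counts in U-87 MG KO libraries against 10, 18 and 7 counts in WT libraries (log2 1.69, edgeR adjusted p = 1.0e-04), and its mean level was under 0.5 FPKM. Both neighbours were thus higher in every U-87 MG KO library than in any WT library, beside 31.8% of all genes tested. The same held for COL3A1 and COL5A2, which lie 19.15 kb apart and differed by 3.31 and 0.20 on the log2 scale. COL6A1 and COL6A2, 93.06 kb apart, were both lower in U-87 MG KO libraries. COL4A2 was lower while COL4A1 overlapped, as did COL18A1, 468 kb from COL6A1. No link between position and change was tested. VCAN, encoding versican, differed by -0.27 on the log2 scale in U-87 MG and by 0.19 in HCT116, and BGN, encoding biglycan, had too few counts to test in either line.

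Among the collagen maturation genes, LOX fell in U-87 MG and LOXL1 rose in HCT116. LOX, the founding lysyl oxidase, had 227, 207 and 209 CPM in U-87 MG KO libraries against 348, 346 and 369.5 CPM in WT libraries, and fell by 0.72 on the log2 scale (edgeR adjusted p = 3.6e-12). LOXL1, a lysyl oxidase of elastic fibres, had 12.8, 13.2 and 15.3 CPM in HCT116 KO libraries against 7.82, 7.71 and 10.4 CPM in WT libraries, and rose by 0.69 (edgeR adjusted p = 4.1e-05), a call that limma on log2(FPKM + 1) did not make. In U-87 MG LOXL1 had 164, 168 and 169 CPM in KO libraries against 164, 164 and 239 CPM in WT libraries, so 1 WT library set the difference of -0.17, which was 0.02 without WT replicate 3. LOXL2, which cross-links type IV collagen, had 48.7, 51.4 and 54.1 CPM in HCT116 KO libraries against 33.2, 33.1 and 37.3 CPM in WT libraries. Its fold of 1.49 fell just short of the threshold, and it was called without KO replicate 1 (log2 0.62), without WT replicate 3 (log2 0.63) and with upper-quartile scaling (log2 0.59). PLOD2, a lysyl hydroxylase, differed by 0.14 on the log2 scale in U-87 MG and 0.22 in HCT116. SERPINH1 had 148, 131 and 152 CPM in HCT116 KO libraries against 188, 185 and 190.4 CPM in WT libraries, a log2 difference of -0.38 under the fold threshold, and its U-87 MG groups overlapped.

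**Figure D5:**
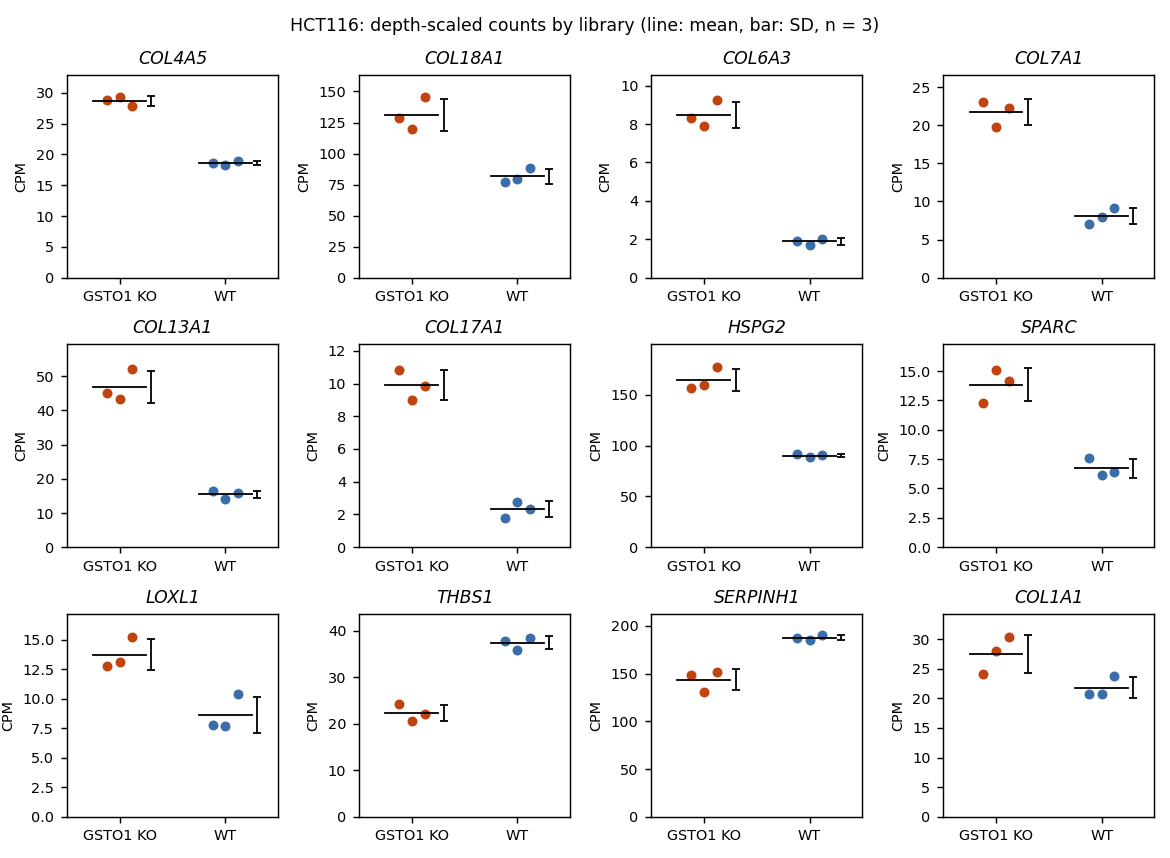
CPM of 12 members in the HCT116 libraries, GSTO1 KO on the left and WT on the right of each panel, 1 point per library, with the mean as a line and the SD as a bar (n = 3). KO libraries lie below WT libraries for THBS1 and SERPINH1 and above them for the other 10 genes, without overlap.

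No source used here gives the strand setting of the counting, so reads of antisense genes may be included. By GENCODE 44, 6 members had more than 5% of their exon bases opposite the exons of another gene, at 31.2% for THBS2, 30.7% for NID2, 18.5% for COL18A1, 11.7% for HSPG2, 9.21% for LOXL1 and 7.58% for THBS1. The partner of COL18A1, SLC19A1, had 249 to 507 counts in U-87 MG while COL18A1 had 3 to 17, and the partner of HSPG2, LDLRAD2, had 0 to 3 counts in every library. FSIP1, opposite THBS1, had 24 to 51 counts in U-87 MG KO and 44 to 69 counts in U-87 MG WT libraries, against 431 to 550 and 2426 to 3169 counts of THBS1. The partner of LOXL1, LOXL1-AS1, had 712 to 876 counts in U-87 MG KO and 1015 to 1257 counts in U-87 MG WT libraries. LOXL1 and COL18A1 were called in HCT116, where LOXL1-AS1 had 185 to 236 counts in KO and 154 to 244 in WT libraries. LOXL1 itself had 230 to 365 and 190 to 221 counts there. SLC19A1 had 657 to 898 counts in HCT116 KO and 1344 to 1511 in HCT116 WT libraries. COL18A1 had 2277 to 3475 and 1875 to 2060. The part of antisense reads in these calls was not tested.

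The change with loss of GSTO1 differed between the lines for 16 of the 37 members tested together. In an edgeR fit of all 12 libraries, the U-87 MG change was lower than the HCT116 change for 16 members, beside 9.66% of 15613 genes tested, and higher for 0 members, beside 7.24% of genes. Without the fold threshold 18 members were lower, beside 20.2% of genes, and 4 were higher, COL12A1, COL4A5, COL5A2 and SERPINH1, beside 19.3% of genes. At an unadjusted p under 0.05 it was 20 lower and the same 4 higher. The share of all genes at that unadjusted p was not computed, so nothing is read from these 2 counts. COL12A1, whose difference of 0.58 sat at the fold threshold, was called higher by DESeq2, by limma, with upper-quartile factors, with no filter and in 8 of 12 fits with 1 library left out. With limma on FPKM, COL3A1 was also called higher (log2 1.23 and 2.71 with pseudocounts of 1 and 0.1), as was COL4A5 with a pseudocount of 1 (log2 0.60). COL3A1 had 0 to 2 counts per library in HCT116, so its limma difference is close to the U-87 MG change alone. The count fit gave it 1.83 with an SE of 2.26. COL13A1 had the largest well-measured difference, -2.62 ± 0.10 (SE, edgeR adjusted p = 1.5e-19). COL6A3 followed at -2.50, COL16A1 at -2.49, COL17A1 at -2.46 and COL5A1 at -2.20. A call for the difference needed a mean above 0.5 FPKM in only 1 line. COL6A3, COL16A1, COL5A1 and NID2 met this through U-87 MG alone, and COL18A1 through HCT116 alone. COL6A3 averaged 0.723 FPKM in HCT116 KO and 0.166 FPKM in HCT116 WT libraries, COL16A1 0.429 and 0.305, and COL5A1 0.103 and 0.0346. All 3 type VI chains were among the 16, with COL6A1 at -1.38 and COL6A2 at -1.09. For THBS1, lower in KO in both lines, the U-87 MG fall was deeper by 1.73 on the log2 scale (SE 0.09, edgeR adjusted p = 5.5e-16). NID2 at -5.07 rested on 2 counts in HCT116 KO replicate 3, and its adjusted p was 0.9998 without that library. LOXL1 at -0.87 (edgeR adjusted p = 0.035) lost its call without any 1 KO library of either line and without HCT116 WT replicate 1 or 2, with adjusted p-values of 0.055 to 0.115, and with no filter on low counts (adjusted p = 0.057). LOXL2 at -0.68 lost its call with limma on log2(FPKM + 1), at -0.56. COL18A1 at -1.47 rested on 3 to 17 counts in U-87 MG, and stood at -1.20 without U-87 MG WT replicate 2 (adjusted p = 0.080). For the 6 members with 0 counts in HCT116 the count fit gave no usable difference, and a difference from FPKM, listed at 0 there, is the U-87 MG change alone. Of these 6, limma called LUM (log2 2.39 and 2.64 with pseudocounts of 1 and 0.1), LOX (-0.69 and -0.70) and, with 0.1, EFEMP1 (-0.73).

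Of the 22 members tested in both lines, 13 were negative in U-87 MG and positive in HCT116, which is 59.1% beside 19.0% of the 12239 genes tested in both. The 13 were COL1A1, COL5A1, COL6A1, COL6A2, COL6A3, COL7A1, COL13A1, COL16A1, COL17A1, FBN1, VCAN, LOXL1 and LOXL2, although LOXL1 was positive in U-87 MG without WT replicate 3. A further 5 members were positive in both lines, beside 30.1% of all genes, and 1 was negative in both, beside 30.9%. COL5A2, COL12A1 and SERPINH1 were positive in U-87 MG and negative in HCT116, as were 19.9% of all genes. These signs count values of any size, and no test was made of the counts.

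Matrix genes outside the 40 were called in both directions. Over all genes tested, 8.06% rose and 8.15% fell in U-87 MG, and 7.82% rose and 4.07% fell in HCT116. Counts of 0 or 1 in such short lists cannot be set apart from these shares. Of 25 other collagen chains, 9 were tested in U-87 MG, where COL4A6 rose and 0 fell, and 11 in HCT116, where COL11A2 rose (log2 1.55) and COL9A3 fell (log2 -0.77). Of 27 genes of collagen synthesis and processing, 23 were tested in U-87 MG, where 1 rose and 3 fell. P4HA1, a prolyl hydroxylase subunit, stood at 409 ± 12.6 CPM in KO and 227 ± 11.0 CPM in WT libraries (log2 0.85). PCOLCE, which speeds removal of the procollagen end peptide, fell by 0.64, ADAMTS3 by 0.66 and ADAMTS14, both procollagen peptidases, by 0.76. In HCT116, 25 were tested, 3 rose and 0 fell, with PXDN, which cross-links type IV collagen, at 100.1 ± 4.19 CPM in KO and 48.3 ± 2.16 CPM in WT libraries (log2 1.06). FKBP10 and LOXL4 were the other two, at 0.60 and 0.74 on the log2 scale.

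Of 50 other matrix glycoproteins and proteoglycans, 24 were tested in U-87 MG, where 5 rose and 5 fell, and 20 in HCT116, where 5 rose and 0 fell. TGFBI, encoding a collagen-binding adhesion protein, stood at 1861 ± 14.3 CPM in U-87 MG KO and 3744 ± 66.4 CPM in U-87 MG WT libraries (log2 -1.01). LTBP2 fell by 1.598 and SMOC1 by 1.48, while MATN2 rose by 1.19 on the log2 scale. The largest rises of the list in U-87 MG, picked after their values were seen, were those of FBLN5 by 2.56, MGP by 2.33 and AGRN by 1.65. In HCT116, LTBP3, which binds latent TGF-beta, stood at 258 ± 24.4 CPM in KO and 121 ± 6.55 CPM in WT libraries (log2 1.09), and FBN3, HAPLN3 and THBS3 rose by 0.95, 0.84 and 0.82. Of 27 matrix receptors, 23 were tested in U-87 MG, where 5 rose and 1 fell, and 20 in HCT116, where 5 rose and 0 fell. The collagen-binding integrin subunit ITGA1 stood at 147 ± 2.70 CPM in U-87 MG KO and 32.0 ± 3.69 CPM in U-87 MG WT libraries (log2 2.21), ITGA7 and SDC3 rose by 1.59 and 0.80, and ITGB3 fell by 0.59. In HCT116, CD44, a hyaluronan receptor, stood at 1217 ± 38.5 CPM in KO and 653 ± 13.4 CPM in WT libraries (log2 0.90), ITGA3 and ITGB4 rose by 0.89 and 0.59, and the collagen receptor DDR1 by 0.62. The values of these genes in edgeR all had adjusted p-values under 0.05, and the lists are described by their counts alone. Beside these counts, 8.06% of all genes tested rose and 8.15% fell in U-87 MG, and 7.82% rose and 4.07% fell in HCT116. No list was tested.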

How the data were processed

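Libraries were made with a stranded mRNA kit and read over 50 bp, as pairs for U-87 MG and as single reads for HCT116. The submitters' processing notes name STAR 2.5.2 and the build GRCh38. The authors counted reads per gene with featureCounts 1.6.1 (deposited as raw counts) and derived FPKM values with Cufflinks 2.2.1 on refGene models, per the labels' design text. From the counts, edgeR 4.0.16 (R 4.3.3, robust quasi-likelihood F-test, TMM factors, filterByExpr) was fitted to the 6 libraries of a line, and to all 12 libraries in 4 groups for differences between lines. Benjamini-Hochberg adjustment covered every gene that passed the filter. Calls required a fold over 1.5, an adjusted p-value below 0.05 and more than 0.5 FPKM on average. That average was over the 6 libraries of a line, and for comparisons between lines it was needed in at least 1 line. Standard errors are the log2 fold change divided by the root of F. The steps were tested on simulated counts with known changes. Alternatives were DESeq2 1.42.0, limma 3.58.1 on log2(FPKM + 1) and log2(FPKM + 0.1), upper-quartile factors, no filter, no fold threshold, a replicate block and leaving out each library. Nothing in the labels ties replicates to separate cultures, and p-values then measure the spread between these libraries alone. All members were to be named, with up to 4 called genes per other list and line. The members and lists were chosen with earlier results of these data known.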

Additional observations from a re-analysis of the deposited data

Results flagged for a closer look

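The 16 members below changed differently in the 2 lines by edgeR's test of the difference itself, as log2 change in U-87 MG minus that in HCT116. All 16 differences were negative. Among collagens they were -2.62 for COL13A1, -2.50 for COL6A3, -2.49 for COL16A1, -2.46 for COL17A1, -2.20 for COL5A1, -1.77 for COL7A1, -1.47 for COL18A1, -1.38 for COL6A1, -1.19 for COL1A1 and -1.09 for COL6A2. Among the other genes they were -5.07 for NID2, -1.73 for THBS1, -0.99 for SPARC, -0.87 for LOXL1, -0.80 for HSPG2 and -0.68 for LOXL2. The values of NID2, COL18A1 and LOXL1 depended on single libraries, as given above. COL6A3, COL16A1, COL5A1 and NID2 passed the FPKM threshold only in U-87 MG, and COL18A1 only in HCT116.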

How the results depend on the processing

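Calls were counted again under each alternative. In HCT116, 9 members were called, 18 without the fold threshold, 7 to 10 under the other settings and 9 to 10 with 1 library left out. In U-87 MG, 17 were called, 29 without the fold threshold, 16 to 17 under the other settings and 17 with any 1 library left out. For the difference between lines, 16 were called, 25 with limma on log2(FPKM + 0.1), 24 with limma on log2(FPKM + 1) and 14 to 18 with 1 library left out. Between the WT lines 32 were called, and 30 to 34 under alternatives. Under the main setting, calls in either direction took 11.9% of all genes tested in HCT116 and 16.2% in U-87 MG. They took 16.9% for the difference between lines and 55.2% between the WT lines. Shares of all genes are not set beside the counts under the alternatives, so a change in those counts is not read as particular to the members. The median in U-87 MG, -0.25, was -0.21 with upper-quartile factors, -0.301 without the filter, -0.29 with DESeq2, -0.31 with limma on log2(FPKM + 0.1) and -0.299 to -0.235 with 1 library left out. The direction turned for LOXL1 in U-87 MG (-0.27 to 0.024 with 1 library left out, the last without WT replicate 3). For the difference between lines it turned for COL1A2 (0.28 and 0.22 with limma, pseudocounts 1 and 0.1), COL4A2 (-0.64 and -0.999 likewise), COL11A1 (-0.32 to 0.76 with 1 library left out, negative without HCT116 KO replicate 3 or U-87 MG WT replicate 2) and THBS2 (-1.10 to 0.030, positive without HCT116 KO replicate 3). These members other than LOXL1 had few counts in HCT116. None was called by edgeR for the change that turned, while both limma values of COL4A2 passed the call. The cause was not tested. Members not called by edgeR for the difference but called with limma at both pseudocounts were COL3A1, COL12A1 and LUM (higher) and COL4A2, FBN2, LOX, THBS2 and TNC (lower), and FBN2 was also called in 2 fits with 1 library left out. All of these except COL12A1 had few or 0 counts in HCT116, where a pseudocount shrinks the FPKM change toward 0. A replicate block left 9, 17 and 16 members called. Same-numbered KO and WT libraries correlated at 0.0261, 0.017 and 0.135 in HCT116 and 0.025, 0.0013 and -0.0096 in U-87 MG. Different-numbered ones lay between -0.0922 and 0.0779 in HCT116 and between -0.0195 and 0.018 in U-87 MG. The highest value of each line was thus same-numbered, but not every library correlated best with its own number. Values this weak cannot decide whether replicate numbers pair libraries. Depth limits the members with 0 counts in HCT116, whose changes there could not be measured.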
